A study of Saccharomyces cerevisiae with 51 samples.

Results

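The move of wild-type yeast cells to fresh medium was read from 2 RNA-Seq libraries, out of 51 samples in the series. The first is the no-sorbitol control, in which cells were spun down, resuspended in fresh synthetic complete (SC) medium, and harvested after 45 min, and is called the fresh-medium library here. The second is the no α-factor control, in which cells of the same strain stayed in vegetative growth in the medium they had grown in, and is called the growth library. They were chosen by their labels and not by a measured value, though earlier results of these data were known. The step is the handling that the sorbitol experiment shares with its control, and what it does to RNA is the question that the comparison addresses. Centrifugation, resuspension, and new medium all came together and cannot be told apart. The 2 libraries are also the controls of 2 different treatments. Any difference of culture, harvest, or library preparation between them cannot be told apart from the move either. Both strains of the RNA-Seq experiment were grown at 30° to mid-log phase. The wild type was yAS418, a *MAT*a spore of BY4743 with *lys2*Δ0 *ura3*Δ0 *his3*Δ1 *met15*, in which a cassette of the *FUS1* promoter, GFP, and *LEU2* replaces *BAR1*. The deletion strain yAS395 carries the same alleles and *sub1*Δ::kanMX. Its no-sorbitol and no α-factor control libraries give the same step and were read as a check from another strain, not as a replicate. Their labels give fresh SC medium without a time. Each condition is a single library, so no comparison here has replicates or a test between conditions.

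Budding yeast ferments glucose in preference to other sugars and takes it up through the hexose transporters of the HXT family. Hxt3 has a low affinity for glucose and serves when the sugar is plentiful, while Hxt6 and Hxt7 have a high affinity, and their genes are repressed at high glucose and expressed as glucose runs down. A cell given nutrients also makes ribosomes, and the many factors that process rRNA and assemble the subunits are known as a regulon whose mRNAs move together with growth rate and nutrient supply. Sorbitol is an osmolyte that draws water out of the cell, and its control culture was given the same new medium without it.

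The authors deposited a signal per 100-bp bin of the SacCer2 genome. Listed values were whole multiples of the lowest one in the library, from which the reads were recovered, 39497371 for the growth library and 34280537 for the fresh-medium library. The 8 RNA-Seq libraries held between 28754973 and 39497371 reads and were scaled by the authors to one total. A run of 9 adjacent bins on chromosome XIII (348700 to 349599) had a mean signal per bin of 410 in growth and 375 in fresh medium in the wild type and of at most 0.469 in any *sub1*Δ library, so both wild-type libraries went with their strain label. The RNA was poly(A)-selected and the signal is not separated by strand.

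Few bins differed by much between fresh medium and growth in the wild type. Ratios were taken as log2((fresh medium + 1)/(growth + 1)) over the 64649 bins that reached the median of the listed bins in at least 1 of the 2 libraries, a signal of 99.4 in fresh medium and 108.9 in growth. A bin was called higher at a log2 ratio of 1 or more and lower at −1 or less. Of these bins, 123 were called higher and 805 lower, which makes 0.19% and 1.25% of all bins, and 82.1% of bins lay within 0.5 of no change. The median ratio was −0.07 and the middle 90% of bins ran from −0.72 to 0.49. Of the bins past the threshold, 86.7% were lower. With the libraries scaled by the median ratio instead, 202 bins were called higher and 501 lower, so that 71.3% were lower, which moved every ratio up by 0.07 and turned those between −0.07 and 0 positive.

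Many of these calls stood close to the threshold. Of the 123 higher bins, 60 lay within 0.1 of it, and of the 805 lower bins 388 did. A 95% counting interval was taken, exact Clopper-Pearson on the reads of the 2 libraries. It left out no change in all 928 called bins, but this follows from the threshold and the floor and lends the calls no support. The interval lay wholly past the threshold in 8 of the higher and 185 of the lower bins. A bin at the median of both libraries holds 130 reads in growth and 103 in fresh medium, and the interval of its log2 ratio runs from −0.52 to 0.25. The intervals cover counting error only, and since a read may have been counted in each bin it overlapped, they may be too narrow. The highest ratio of any bin was 1.77 and the lowest −1.75.

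In *sub1*Δ more bins passed the threshold. Over 65571 bins, 552 were called higher (0.842%) and 2836 lower (4.33%), with a median of −0.04, and the lowest ratio was −3.90. Over the 60554 bins that reached the floor in both strains, the ratios of the 2 strains had a Pearson correlation of 0.67 and a Spearman correlation of 0.64. This is a correlation across bins, which are not independent, share genes, base composition, and the same handling, and it describes these 4 libraries. Of the bins called lower, 353 were lower in both strains, which was 65% of the 543 wild-type and 13.1% of the 2700 *sub1*Δ calls among these bins. For the bins called higher the count was 40, or 34.5% of 116 and 10.6% of 379. Of the wild-type bins called lower, 91.7% had the same sign in *sub1*Δ, where their median was −1.39 against −1.09 in the wild type. Of those called higher, 96.6% had the same sign, with a median of 0.87 in *sub1*Δ and 1.11 in the wild type. No wild-type higher bin was called lower in *sub1*Δ, and 12 wild-type lower bins were called higher there.

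**Figure D1:**
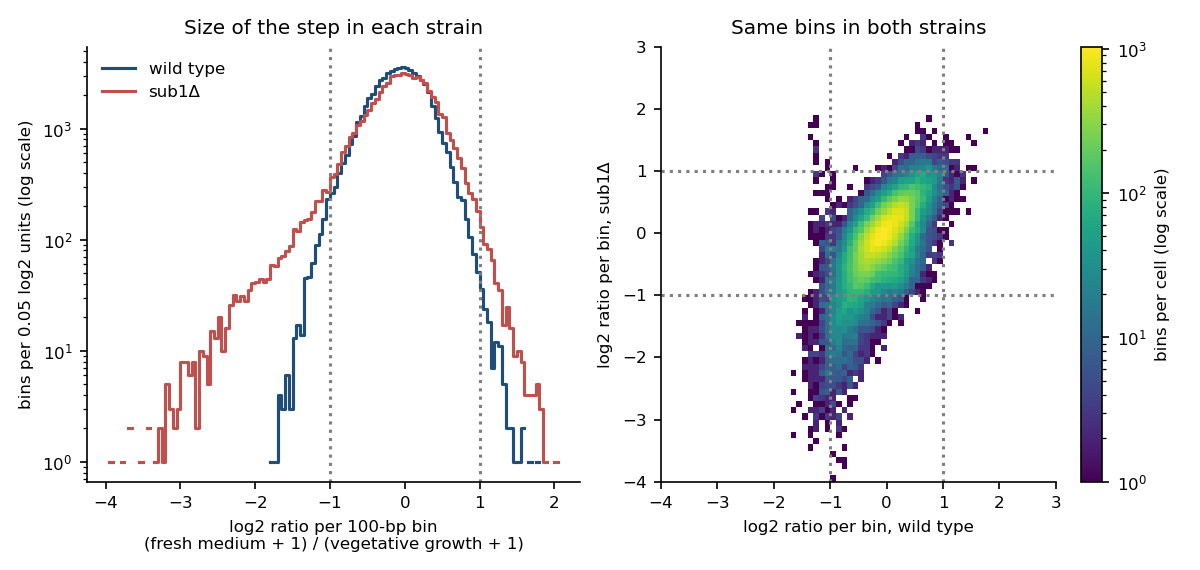
Left, number of 100-bp bins (log scale) at each log2 ratio of fresh medium to vegetative growth, for wild type (blue) and *sub1*Δ (red). Right, the same ratios in both strains for the 60554 bins that reached the floor in each, coloured by the number of bins. Dotted lines mark log2 ratios of −1 and 1, past which 928 wild-type bins lay, and the *sub1*Δ bins reach down to −3.90 where the wild type stops at −1.75.

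The bin files name no genes. Genes were therefore placed on SacCer2 by the annotation that the authors drew under their browser views, which gave 84 genes of chromosome IV between 1032200 and 1198499 and 9 genes around *FIG1*, *FUS1*, and *IMD2*. Of these 93 genes, 91 had at least 100 reads in 1 of the 2 libraries. The level of a gene is given as the mean signal per 100-bp bin over its bins, and its ratio is that of the summed signal without a pseudocount. None of the 91 genes passed a log2 ratio of 1 in either direction, beside 0.19% and 1.25% of bins, although *BFR2* passed it by a little with scaling by the median ratio or with only the bins wholly inside the gene. The ratios ran from −0.68 to 0.98 with a median of −0.04, and 80 genes lay within 0.5 of no change. The counting interval lay above 0 for 23 genes, below 0 for 37, and included 0 for 31. This balance depends on the scaling. The ratio was above 0 for 34 genes and below 0 for 57, but for 51 and 40 with scaling by the median ratio. That scaling put 33 of the 91 ratios outside their interval. In *sub1*Δ 3 of the 91 were at −1 or less and none at 1 or more, and 78 of 91 had the same sign in both strains.

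The hexose transporters were lower in fresh medium in all 3 cases, beside 57 of all 91 genes. *HXT7* (chromosome IV, 1153900 to 1155799), a high-affinity transporter gene, had a mean signal per bin of 6320 in growth and 4152 in fresh medium. Its log2 ratio was −0.61 (95% interval −0.62 to −0.59). *HXT6* (1159500 to 1161199), its neighbor and a near-identical copy, had 6252 in growth and 4053 in fresh medium, a ratio of −0.63 (−0.64 to −0.61). The reads of these neighbors cannot be separated with certainty, so they count as a single observation. *HXT3* (1162600 to 1164499), the low-affinity transporter gene, had 8273 in growth and 7088 in fresh medium, and its ratio of −0.22 (−0.23 to −0.21) was smaller than that of the high-affinity pair.

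In *sub1*Δ the 3 ratios came in the same order, at lower levels. *HXT7* went from 1932 in growth to 843 in fresh medium, with a ratio of −1.20, and *HXT6* from 1871 to 812, also −1.20. *HXT3* went from 4978 to 3954, with a ratio of −0.33. Among the other wild-type libraries, the *HXT7* signal was 5003 with α-factor and 2682 in sorbitol. The growth library thus held the highest *HXT7* and *HXT6* signals of the 4 wild-type libraries, and the sorbitol library, which had also been moved to new medium, the lowest. The 4 *sub1*Δ libraries came in another order, with an *HXT7* signal of 2263 with α-factor, above that in growth, and of 1239 in sorbitol, above that in fresh medium.

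The factors that process rRNA and assemble ribosomes were higher in fresh medium in 4 of 4 cases, beside 34 of all 91 genes. *BFR2* (1059400 to 1061099), whose product is part of the early pre-ribosome, had the highest ratio of all 91 genes. Its signal per bin was 57.6 in growth and 114 in fresh medium, from 1169 and 2008 reads, a log2 ratio of 0.98 (0.88 to 1.09), just inside the threshold. In *sub1*Δ it was 91.1 and 182, a ratio of 1.00 (0.91 to 1.09). In the wild type it was 41.5 with α-factor and 71.1 in sorbitol, so the fresh-medium library was the highest of the 4.

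*SSF2* (1087500 to 1088799), a factor of rRNA processing with a close paralog that may share its reads, had 51.5 in growth and 79 in fresh medium, a ratio of 0.62 (0.48 to 0.75). *UTP4* (1114100 to 1116599), a subunit of the small subunit processome, had 98.3 and 141, a ratio of 0.52 (0.45 to 0.59). *BCP1* (1195300 to 1196199), whose product escorts a protein of the large ribosomal subunit, had 199 and 259, a ratio of 0.38 (0.29 to 0.46). The ratios in *sub1*Δ were 0.60, 0.31, and 0.24 in the same order, so that all 4 genes of the list were higher in fresh medium in both strains. The median of the list was 0.57 in the wild type and 0.45 in *sub1*Δ. Over the 91 placed genes it was −0.04 and −0.09, and over all bins −0.07 and −0.04. The list is short, and not every rRNA factor in the browser views was on it. YDR339C (*FCF1*), a gene of rRNA processing added after its values were seen, had 230 and 271, a ratio of 0.24 (0.16 to 0.32), and 0.27 in *sub1*Δ. With it the median was 0.52 in the wild type and 0.31 in *sub1*Δ.

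**Figure D2:**
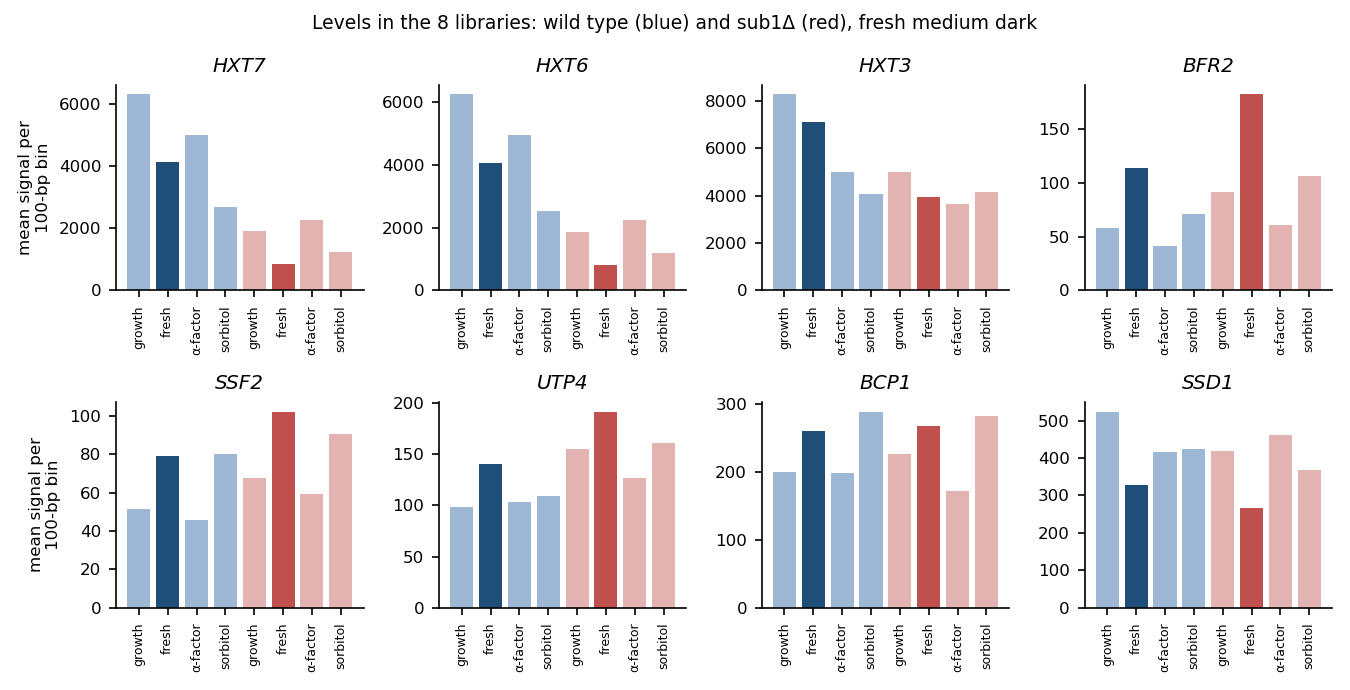
Mean signal per 100-bp bin of 8 genes in the 8 RNA-Seq libraries, wild type in blue and *sub1*Δ in red, with the fresh-medium libraries in dark colors. In both strains *HXT7*, *HXT6*, *HXT3*, and *SSD1* stand lower in fresh medium than in growth and *BFR2*, *SSF2*, *UTP4*, and *BCP1* higher.

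Of the 4 genes of amino acid supply and tRNA charging, 3 had an interval above 0, beside 23 of all 91 genes. YDR341C, which encodes the cytoplasmic arginyl-tRNA synthetase, had a signal per bin of 325 in growth and 445 in fresh medium, a ratio of 0.45 (0.40 to 0.50). *ASP1*, the cytosolic asparaginase gene, had 384 and 495, a ratio of 0.37 (0.32 to 0.42). *PRO1*, which encodes the first enzyme of proline synthesis, had 113 and 145, a ratio of 0.36 (0.27 to 0.46). *TRP4*, a gene of tryptophan synthesis, had 201 and 209, and the interval of its ratio of 0.06 included 0 (−0.02 to 0.14). In *sub1*Δ the ratios of YDR341C, *PRO1*, and *TRP4* were 0.30, 0.30, and 0.26, while that of *ASP1* was 0.01 (−0.04 to 0.06).

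Genes of mitochondrial protein synthesis and ATP synthase moved little. *MRPL35*, *MRPS28*, and *MRP1*, which encode proteins of the mitochondrial ribosome, had ratios of −0.11, −0.04, and −0.13, and the intervals of *MRPL35* (−0.24 to 0.02) and *MRPS28* (−0.15 to 0.07) included 0. Their signals per bin were 87.2, 138, and 163 in growth and 80.8, 134, and 149 in fresh medium. *ATP3* and *ATP5*, which encode the γ subunit and the oligomycin sensitivity subunit of the synthase, had ratios of 0.13 (0.08 to 0.19) and 0.14 (0.08 to 0.21), from 420 and 382 in growth to 460 and 422 in fresh medium. *TIM11*, whose product joins synthase dimers, had 613 and 645, and its interval included 0 (−0.01 to 0.16). The *TIM11* ratio in *sub1*Δ was −0.48 (−0.58 to −0.39).

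*TRR1*, the cytoplasmic thioredoxin reductase gene, had a signal of 916 in growth and 947 in fresh medium, a ratio of 0.05 (0.01 to 0.09). *IMD2*, a gene of GTP synthesis whose near-identical relatives may share its reads, had 258 and 256, a ratio of −0.01 (−0.07 to 0.05). In *sub1*Δ its levels were higher, 1169 and 1104, and its ratio was again small at −0.08. The genes of mating stayed far below their level with α-factor. *FUS1*, a cell fusion gene, had 155 in growth and 181 in fresh medium, a ratio of 0.22 (0.15 to 0.29), and *FIG1*, a gene of mating calcium uptake, had 21.1 and 23.6, with an interval that included 0 (−0.10 to 0.42). With α-factor their wild-type signals were 1483 and 6972. In *sub1*Δ the ratio of *FUS1* was 0.57 (0.51 to 0.63) and that of *FIG1* −0.54 (−0.66 to −0.42).

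Among the other groups, the lowest ratio of all 91 genes was that of *SSD1*, which encodes an RNA-binding protein that holds back translation of cell wall mRNAs. Its signal per bin was 524 in growth and 328 in fresh medium, a ratio of −0.68 (−0.71 to −0.64), and 420 and 267 in *sub1*Δ, a ratio of −0.65. *GIC2*, an effector gene of the polarity GTPase Cdc42, had 206 and 303, a ratio of 0.56 (0.49 to 0.63), and 253 and 453 in *sub1*Δ, a ratio of 0.84. *DAD4*, a subunit gene of the DASH complex at the kinetochore, had 959 and 1366, a ratio of 0.51 (0.45 to 0.58), but 1681 and 1351 in *sub1*Δ, a ratio of −0.31. The last of its 3 bins also holds YDR320W-B and the start of *ASP1*, whose signal there cannot be told apart, and with only bins wholly inside *DAD4* the wild-type ratio was 0.48. The 8 genes of cell cycle, spindle, and polarity ranged from −0.68 to 0.56 with a median of −0.05.

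The ratios of the 10 genes of chromatin and transcription ran from −0.48 to 0.02. The interval lay below 0 for 6 of them and above 0 for none, beside 37 and 23 of all 91 genes. With scaling by the median ratio 4 of the 10 ratios, those of *RSC3*, *SRB7*, *SUM1*, and *TFB1*, were above 0. The lowest were *SWR1*, the ATPase gene of the complex that deposits the histone variant H2A.Z, with 149 in growth and 107 in fresh medium, and *CFT1*, a gene of mRNA 3′ end processing, with 115 and 85, a ratio of −0.43. Of the 11 genes of the secretory pathway, lipids, and the vacuole, 5 had an interval above 0 and 4 below, beside 23 and 37 of all 91 genes. The 11 genes included *SUR2*, a sphingolipid hydroxylase gene, with 802 and 992 and a ratio of 0.31. They also included *GGA1*, a Golgi-to-endosome adaptor gene, with 191 and 127 and a ratio of −0.59, which in *sub1*Δ was −1.20. Reads of the Ty element, which has many copies in the genome, differed by −0.13 and −0.10 over its 2 annotated frames.

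**Figure D3:**
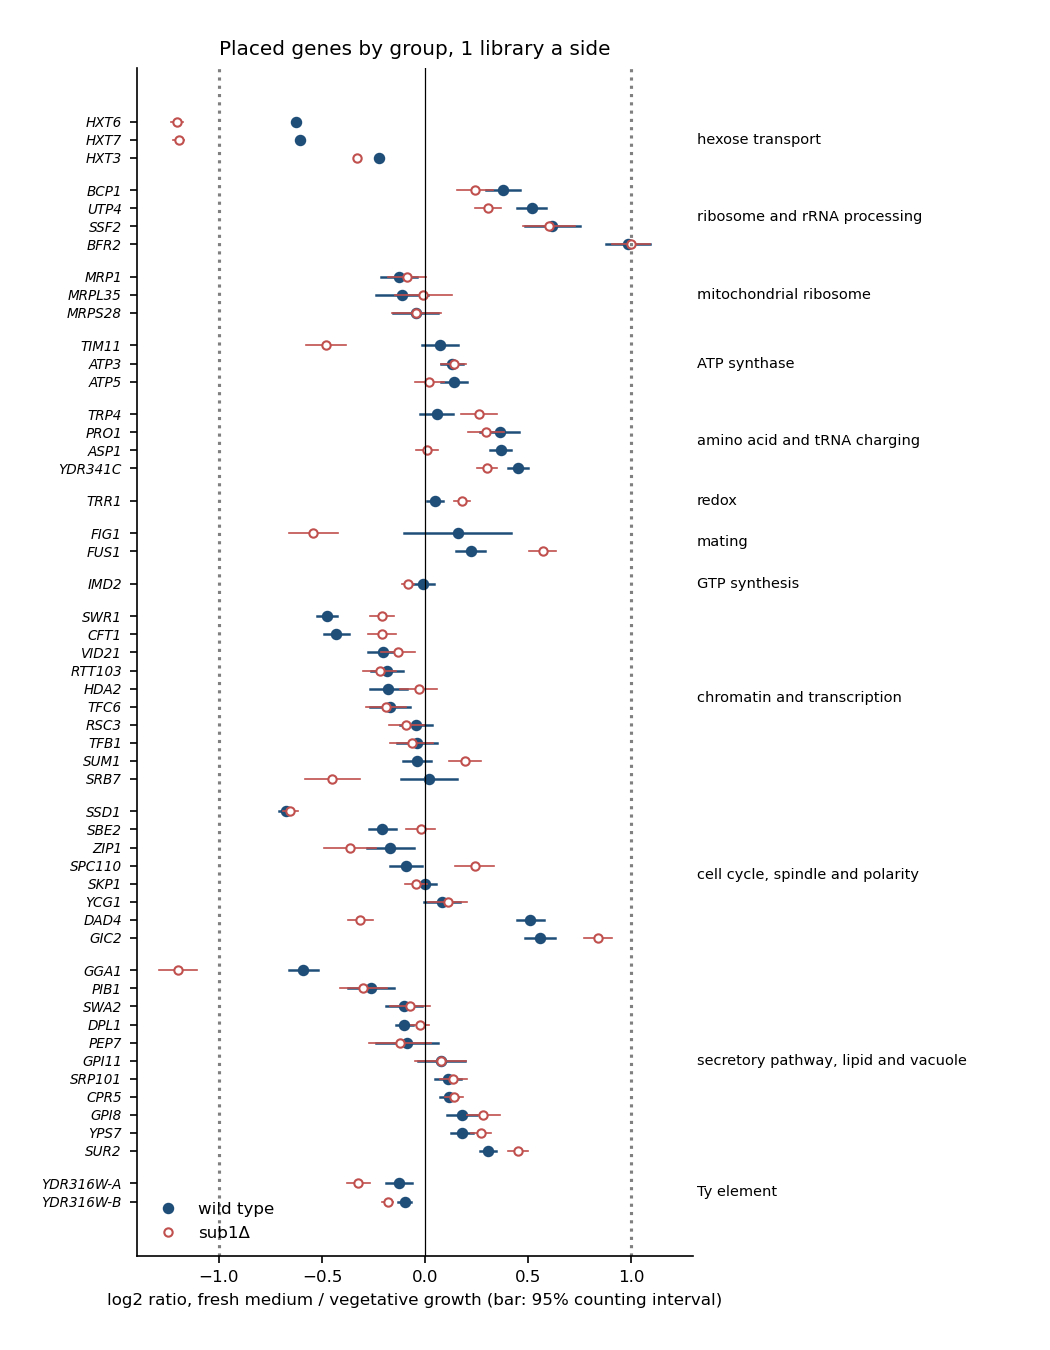
Log2 ratio of fresh medium to vegetative growth for the placed genes of 12 groups, wild type as filled blue and *sub1*Δ as open red points, with bars for the 95% counting interval of 1 library against 1. Dotted lines mark −1 and 1, past which no wild-type gene lies, and the 3 hexose transporter genes stand left of 0 and the 4 rRNA factors right of it in both strains.

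Across the genome, the longer runs of changed bins were all lower. Of the runs of at least 5 adjacent bins past the threshold, 30 were lower and none was higher, and they held 323 bins, or 40.1% of the lower ones. The runs were 500 to 3000 bp long and their ratios lay between −1.44 and −1.05. With scaling by the median ratio 15 runs were left. These runs are given by position, since no gene annotation of SacCer2 was used for them. The growth library was the highest of the 4 wild-type libraries in 27 of the 30 runs, and the fresh-medium library was the lowest in 7. The α-factor library, whose cells were not moved to fresh medium, was below growth in 29 of the 30, at a log2 ratio of −1 or less in 14. As the runs were chosen for more signal in growth than in fresh medium, a high growth library follows in part from the choice.

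The lowest run lay on chromosome XVI, where 13 bins from 902100 to 903399 had a mean signal of 336 in growth and 124 in fresh medium, a ratio of −1.44 (−1.52 to −1.36). In *sub1*Δ they had 159 and 25.5, a ratio of −2.64. Further runs followed at 903500 to 905699, with 253 in growth and 106 in fresh medium and a ratio of −1.25, and at 905800 to 906299, with 338 and 157 and a ratio of −1.11. The fall on chromosome XVI thus covered most bins of a stretch of about 4 kb.

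On chromosome IV, the run at 1279800 to 1281999 had a signal of 241 in growth and 96.3 in fresh medium, a ratio of −1.32 (−1.39 to −1.25), and −1.10 in *sub1*Δ. On chromosome XIV, the run at 271600 to 273699 had 1136 and 454, also −1.32 (−1.36 to −1.29), and −1.73 in *sub1*Δ. The wild-type sorbitol library held 1179 there, more than both, and the wild-type α-factor library 520. On chromosome XV, the run at 368200 to 369199 had 152 and 62.1 (ratio −1.29), and a second at 667600 to 670599, the longest with 30 bins, had 441 and 188 (ratio −1.23). On chromosome V, the run at 133100 to 134699 had 1377 and 582, a ratio of −1.24, and in *sub1*Δ its signal went from 501 to 82.8, a ratio of −2.60. The run on chromosome XIV at 192900 to 193399 had 131 and 54.4 (ratio −1.26).

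The remaining 2 of the 10 lowest runs, at 456000 to 457699 and 465100 to 466699 of chromosome XII, lay in the rDNA stretch described below. The 10 runs with the smallest ratios, from −1.05 to −1.09, lay at 863400 to 863899 of chromosome XVI, at 70600 to 71299 and 71400 to 71999 of chromosome XIII, at 174400 to 175199 of chromosome VI, at 896400 to 896899 of chromosome IV, at 660900 to 661799 of chromosome XII, and, for the other 4, in the rDNA stretch. Outside the rDNA, all 23 runs were below 0 in *sub1*Δ too, 21 of them at −1 or less, and 19 had a lower ratio there than in the wild type. Their median was −1.16 in the wild type and −1.80 in *sub1*Δ. All 23 had less signal in the *sub1*Δ growth library than in that of the wild type, as had all 7 runs in the rDNA. The runs were chosen for a high wild-type growth signal against fresh medium, so this follows in part from the choice. A run at 60700 to 61399 of chromosome IV had 893 in growth, 413 in fresh medium, and 2335 in sorbitol.

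The rDNA is the tandem array of rRNA genes on chromosome XII, of which the assembly holds only a few copies. It was read over the stretch from 451400 to 490599, set by the first and last bins there with at least 5 times the median signal of the untagged ChIP-Seq library. All bins between them were taken, whether or not they hold rRNA genes. As the RNA was poly(A)-selected, how much rRNA passed into each library is not known, and shares of reads do not measure the rRNA of the cells. The stretch took 1.59% of the reads in growth and 0.86% in fresh medium, and 86 of its 254 bins at the floor were called lower. Its log2 ratio was −0.89 (−0.89 to −0.88) in the wild type and 0.12 in *sub1*Δ, where the shares were 1.25% and 1.36%. With α-factor the stretch took 0.829% of reads in the wild type and 1.12% in *sub1*Δ, and in sorbitol 0.717% and 0.845%. Among the wild-type libraries growth thus held the highest share. The α-factor library, whose cells were not moved to fresh medium, had a share near that of the fresh-medium library. All 7 runs in the stretch were lower in the wild type, and their ratios in *sub1*Δ lay between −0.25 and 0.90. With the stretch left out and the totals set equal again, 116 bins were called higher and 774 lower in the wild type. The mitochondrial genome took 0.00778% of reads in growth and 0.00296% in fresh medium, with 2 bins at the floor, and the 2-micron plasmid 0.265% and 0.237%, with no called bin among 52.

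**Figure D4:**
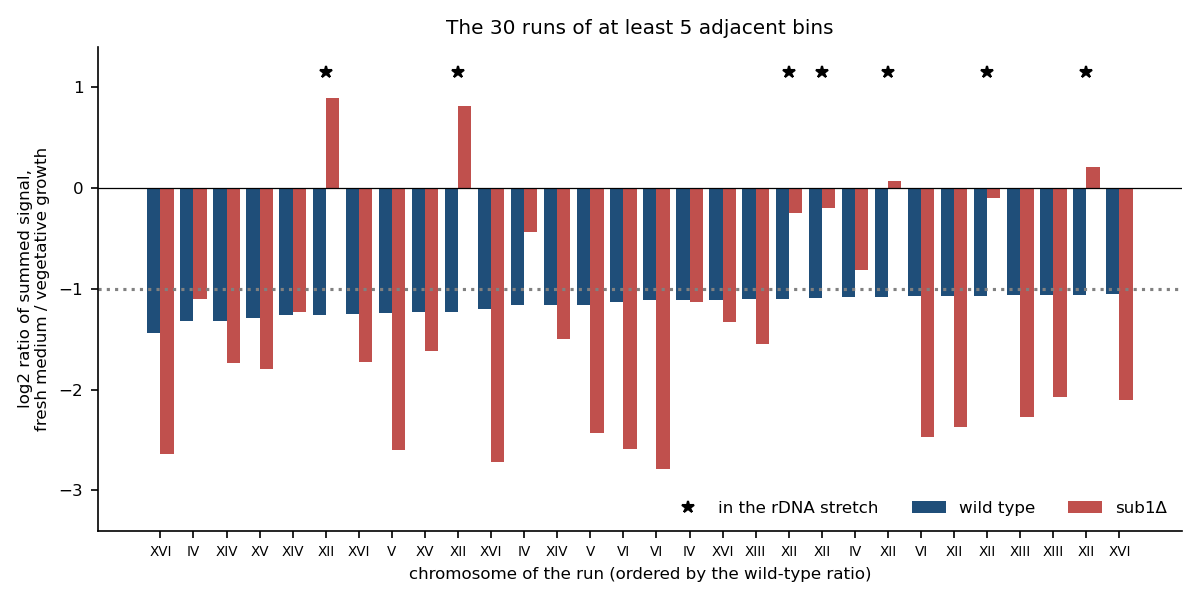
Log2 ratio of summed signal in fresh medium to vegetative growth for the 30 runs of at least 5 adjacent bins called in the wild type, with wild type in blue and *sub1*Δ in red, ordered by the wild-type ratio and labelled by chromosome. Stars mark the 7 runs in the rDNA stretch, 4 of which have *sub1*Δ bars above 0, as no other run has.

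Higher bins lay scattered. When called bins within 1000 bp were joined, the 123 higher bins formed 74 groups, of which 55 were a single bin and 12 had 3 or more. Called higher bins had a median signal of 59.5 in growth and 134 in fresh medium, and the lower bins 276 and 123. As the floor was 108.9 in growth and 99.4 in fresh medium, most higher bins reached it only through fresh medium. Their low growth level follows in part from this floor. With runs taken at 3 adjacent bins, 2 were higher. The first, at 1060300 to 1060599 of chromosome IV, lies within *BFR2* and had 60.3 in growth and 130 in fresh medium. The other, at 241800 to 242099 of chromosome III, had 61.4 and 134, and a ratio of 1.12. Of the groups of 3 or more bins, that with the highest ratio held 7 bins between 46500 and 47799 of chromosome IV, with 50.1 in growth, 129 in fresh medium, 112 with α-factor, and 34.2 in sorbitol. Its ratio was 1.36 (1.19 to 1.53) in the wild type and 1.10 in *sub1*Δ. The largest group had 9 bins between 568800 and 570699 of chromosome XII, with 121 and 266 and a ratio of 1.13. These groups were chosen by their ratio, so the values describe them only.

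The step was also read over lists of bins chosen without either wild-type library. The bins whose signal in *sub1*Δ was higher in 1 M sorbitol than in fresh medium, by a log2 ratio of 2 or more, numbered 781, of which 697 reached the floor in the wild-type libraries. Of these, 232 were called lower in the wild-type step, or 33.3% beside 1.25% of all bins, and none higher. Their median was −0.88 beside −0.07, and their middle 50% ran from −1.05 to −0.67. This list picks bins that are low in the *sub1*Δ fresh-medium library as well as bins that are high in sorbitol, so it overlaps by construction with a lower signal after the step in that strain. Its median log2 ratio of fresh medium to growth in *sub1*Δ was −1.66, and that of sorbitol to growth was 0.75. Of the 697 bins, 291 (41.8%) were also higher in sorbitol than in *sub1*Δ growth by a log2 ratio of 1 or more, a split made after seeing the data. Of these, 75 were called lower in the wild-type step (25.8%) and none higher, with a median of −0.79, and of the other 406 bins 157 (38.7%) were called lower, with a median of −0.93. The median ratio of fresh medium to growth in *sub1*Δ was −0.90 in the 291 bins and −2.17 in the other 406. The split thus does not remove the overlap. The 129 bins at the floor that were lower in sorbitol than in fresh medium in *sub1*Δ had a median of 0.39, with 1 called higher and 2 lower.

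The bins that 10 nM α-factor raised in *sub1*Δ numbered 936, but 307 reached the floor. Their median of −0.05 was near that of all bins, with 1 called lower and none higher. The 181 bins at the floor that α-factor lowered had a median of 0.31, with a middle 50% from 0.22 to 0.48, and 3 were called higher and none lower. Bins between the 75th percentile and the top of the mean level in *sub1*Δ had a median of 0.01, and those between the 50th and 75th percentile −0.12, with 0.931% and 0.793% called lower. Below the 25th percentile and between it and the 50th, only 95 and 7075 of 30133 bins reached the floor, so no counts are read from them.

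By position, 1407 of the 6400 bins within 20 kb of a chromosome end reached the floor. They had a median of −0.27, with 2 called lower (0.142% beside 1.25% of all bins) and none higher. Bins at the floor had a median of −0.61 below the 25th percentile of mean level in *sub1*Δ and of −0.31 between it and the 50th. Only 95 and 7075 of 30133 bins reached the floor there, by their signal in a wild-type library of the ratio. These medians thus follow in part from the floor, and no trend with level is read from them. Whether position or level goes with the lower median near the ends was not tested. In *sub1*Δ the median of bins near the ends was −0.11, beside −0.04 over all bins. The 4973 bins at the floor that were bound by 3HA-tagged Sub1 in cells without α-factor, at 2 times the untagged library or more, had a median of 0.05, with 1.45% called lower and 0.241% higher, close to the shares of all bins. By chromosome, the share of lower bins ran from 0.275% on chromosome VIII to 3.43% on chromosome VI, where 43 of 1254 bins were called.

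**Figure D5:**
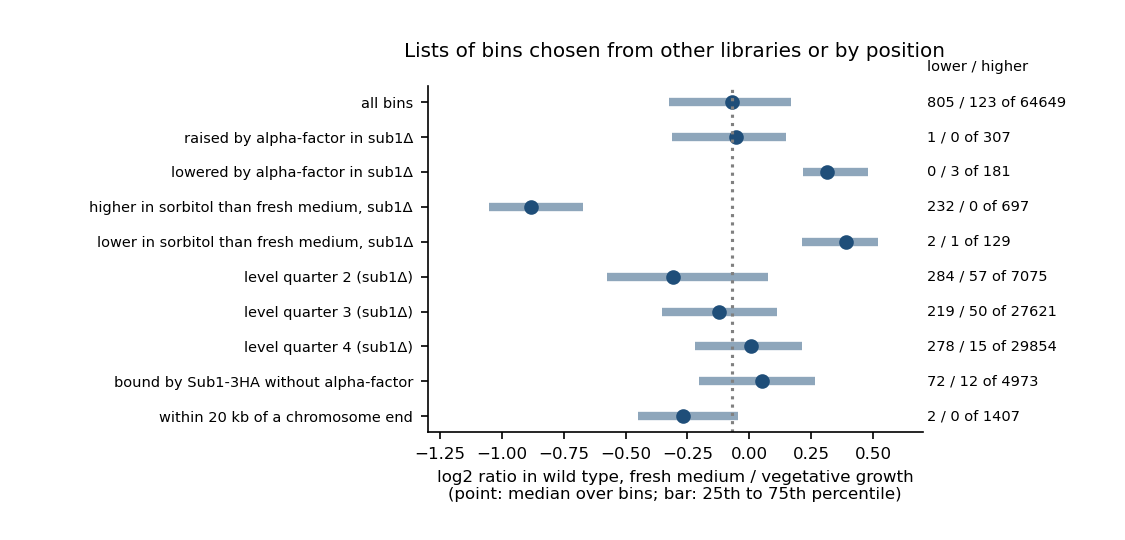
Median (point) and 25th to 75th percentile (bar) of the wild-type log2 ratio of fresh medium to vegetative growth over lists of 100-bp bins, with the numbers of bins called lower and higher out of those at the floor at the right. The dotted line is the median of all bins, −0.07, and the bins higher in sorbitol than in fresh medium in *sub1*Δ, a list that also picks bins low in that fresh-medium library, have a median of −0.88.

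Evenness of coverage along genes was read as a sign of RNA quality. It was read over 40 placed genes, all transcribed from the same strand. Genes of the other strand, among them the HXT genes, *UTP4*, *BCP1*, *SSD1*, and *GIC2*, were left out. The measure was the signal of the part of a gene toward its 3′ end over that of the part, equally long, toward its 5′ end. Its median was 1.71 in growth and 1.66 in fresh medium, and between 1.66 and 2.07 over the 8 libraries. Per gene, the log2 ratio of this measure between fresh medium and growth had a median of −0.02 and ranged from −0.25 to 0.30.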

How the data were processed

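RNA from about 5 OD of cells was poly(A)-selected and sequenced as single 50-bp reads. Bowtie2 and SacCer2 are named in the submitters' processing notes. The signal deposited by the authors is a value for each 100-bp bin, unstranded, with the totals of all RNA-Seq files made equal. How reads were assigned to bins is not given in the sources used here. Bins not listed were set to 0. Reads were recovered as value over smallest value, and 100% were whole within a tolerance of 0.001. Genes were placed by reading, by eye, the annotation under the browser views of the authors. The chromosome IV view has an axis (199 bp per pixel) and the other 3 views were anchored by matching bar heights to bins, the only use made of those heights. A gene edge is good to about 1 pixel. Values are printed for the genes of 8 functional groups, for the extremes of the others, and for the 10 highest and 10 lowest runs. The *GIC2*, *DAD4*, *SSD1*, *SWR1*, *CFT1*, *SUR2*, and *GGA1* values, and the groups of higher bins, were chosen after their values were seen. The comparison and lists were chosen with earlier results of these data known. A table of the R64 assembly matched 85 of 93 gene names. Sub1 binding used 2 ChIP-Seq signal files. Other ChIP-Seq files and the Bar-Seq table were not used. Python 3.11.15, numpy 2.4.6, pandas 2.3.3, and scipy 1.17.1 were used, with steps tested on simulated data.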

Additional observations from a re-analysis of the deposited data

Results flagged for a closer look

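Several results moved in opposite directions in the 2 strains, and the difference was not tested, with 1 library a side. *DAD4* had a log2 ratio of 0.51 in the wild type and −0.31 in *sub1*Δ. *SPC110*, a spindle pole gene, had −0.093 and 0.24. The rDNA stretch had −0.89 and 0.12. Of its runs, that at 465100 of chromosome XII had −1.26 and 0.90, that at 456000 had −1.23 and 0.81, that at 462900 had −1.08 and 0.07, and that at 452900 had −1.06 and 0.21. What moves with these differences was not tested.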

How the results depend on the processing

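No paired analysis was possible because each RNA-Seq condition is 1 library. Lower bins outnumbered higher ones under every setting run, in both strains. In the wild type, 68 bins were called higher with a pseudocount of 10, 1700 higher and 2997 lower without a floor, 21 and 493 with the floor at the upper quartile, 202 and 501 with scaling by the median ratio, 188 and 535 with the total taken without the 1% highest bins, and 5 and 115 with 500-bp bins. In *sub1*Δ, 2283 were higher and 7940 lower without a floor, 238 and 1706 with the floor at the upper quartile, and 68 and 513 with 500-bp bins. These last counts come from fewer features by construction. Leaving out the rDNA stretch, chosen after seeing the data, gave 116 and 774 in the wild type. Of the placed genes, 1 passed the threshold with only bins wholly inside the gene and 1 with scaling by the median ratio, *BFR2* in both. Scaling by the median ratio changed the sign of 17 of 91 genes, all near 0. It took the genes above 0 from 34 to 51 and those below 0 from 57 to 40. Runs numbered 2 higher and 65 lower at 3 adjacent bins, and 15 lower with scaling by the median ratio. With treated bins taken at a log2 ratio of 1, the median of bins lowered by α-factor was 0.18 and of bins higher in sorbitol than in fresh medium −0.63. Depth limits single bins most, as the interval at the floor shows, while the HXT genes rest on 71379 reads or more in each of the 2 wild-type libraries.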
